A study of Mus musculus with 9 samples.

Results

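Solute carriers are membrane proteins that move sugars, amino acids, metals, nucleosides, vitamins and ions across the plasma membrane and the membranes of organelles. The genes described here are those whose symbol begins with Slc and a digit and whose mean normalized read count over all 9 libraries was at least 200, leaving out Slc2a1, Slc11a1, Slc11a2 and Slc40a1 by name. This rule took 165 of the 14905 genes of the deposited table. The table held 254 genes with such symbols, of which 85 had a mean under 200 and 4 were left out by name. Of the 165 members, 161 encode transporters or their subunits and 4 carry the name only. The rule used the level of each gene, so levels are given as a description. It did not use the difference between the genotypes.

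RNA was sequenced from F4/80+ CD11b+ cells sorted from visceral adipose tissue of C57BL/6 mice, in 5 libraries with the genotype Nucb2-/- (KO) and 4 wild-type libraries (WT). Nucb2 encodes nucleobindin-2, and the labels give no cell type or promoter to which its loss was limited. The sample labels do not give the diet, sex or age of the mice. The deposited table of all 9 libraries carries in its name the letters HFD, the usual abbreviation of a high-fat diet. Whether the libraries of a genotype are separate mice is not stated in the labels, and p-values here rest on the spread among libraries, part of which may be technical.

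Nucb2 averaged 1500 ± 219 normalized counts in KO and 4313 ± 791 in WT (n = 5 and 4, SD), a log2 difference of -1.52 (SE 0.17; adjusted p = 0.000539 in limma). Reads worked out from the values came to between 51148956 and 85200104 per library, and all 165 members stood above the floor of 1 in every library. The 10 macrophage markers summed to between 1318260 and 1431350 normalized counts in KO and between 1406690 and 1581970 in WT. Lyz2 alone averaged 809546 in KO and 825447 in WT. Of the 10 differences 7 were below 0 and 3 above, and 5 had an unadjusted p under 0.05 in limma (background 9.14%). C1qa and Fcgr1, each with a log2 difference of -0.50, were lower in every KO library than in any WT library, as 1.6% of all genes were. Itgam was higher in KO, at 0.18. For 4 of 10 other cell types, the summed markers did not overlap between the genotypes. The 8 endothelial markers summed to 4508 to 8204 in KO, against 1757 to 3757 in WT, with all 8 differences above 0. The 6 dendritic cell markers summed to 10693 to 13427 in KO, against 6717 to 10307 in WT (4 of 6 above 0). Cd209a was the largest part of this sum, with a mean of 7634 in KO and 4154 in WT. Clec9a went the other way, with 50.1 in KO and 411 in WT, as did Zbtb46, with 79.0 and 114. The 7 measured T and NK cell markers summed to 1384 to 2509 in KO, against 1104 to 1286 in WT (4 of 7 above 0). Most of this sum was Cd2, with a mean of 1331 in KO and 813 in WT. Cd3g went the other way, with 65.2 in KO and 115 in WT, as did Cd8a, with 33.1 and 49.9. The 8 markers of mast cells, basophils and eosinophils summed to 1634 to 3581 in KO, against 5976 to 10427 in WT, with 7 of 8 differences below 0. The 8 fibroblast markers had the largest sum after the macrophage markers, 507588 to 766481 in KO, against 354303 to 533838 in WT. Of their differences 7 were above 0 and 1 below. Most of this sum was Gsn, with a mean of 255864 in KO and 183936 in WT, and Dcn, with 249667 and 183147. On the log2 scale Pdgfra differed by 0.43, Col1a1 by 0.16 and Col3a1 by -0.03. The 8 mesothelial markers summed to 5629 to 18470 in KO, against 2255 to 7637 in WT, with all 8 differences above 0. Both sums were higher at the median in KO but overlapped. Rn45s, the ribosomal RNA precursor, held 1.97% ± 0.13 of all counts in KO and 2.98% ± 0.38 in WT (n = 5 and 4, SD). The part of these cell types and of Rn45s in any difference given below was not tested. Of the listed markers, Plin1, Ms4a2, Retnlg, Ncr1 and Pax5 had means under 20. In these bulk libraries, fewer cells of a type and less RNA per cell cannot be told apart.

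In macrophages, solute carriers are known for supplying glucose and glutamine to an activated cell, for exchanging cystine against glutamate, for exporting lactate, and for clearing amino acids, nucleosides, heme and metals from the lysosome after other cells or debris have been taken up. Several are regulated at transcription. Amino acid shortage acts through the factor ATF4 on Slc7a11 and other carriers, and zinc acts through the factor MTF1 on the zinc exporter Slc30a1. The start regions below are shown because the readouts of both pathways are given with their carriers further on, and because Slc44a2, a choline transporter-like protein whose KO and WT ranges did not overlap, has annotated starts far apart on the chromosome. They are RefSeq sequences on GRCm38.p6, the assembly that mm10 names, and run 5′ to 3′ from 250 bases before to 30 bases after the start site.

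The Slc7a11 start region lies at chr3:50443584-50443863 on the minus strand, and capitals mark matches on either strand to the amino acid response element TGATGNAA.
Slc7a11: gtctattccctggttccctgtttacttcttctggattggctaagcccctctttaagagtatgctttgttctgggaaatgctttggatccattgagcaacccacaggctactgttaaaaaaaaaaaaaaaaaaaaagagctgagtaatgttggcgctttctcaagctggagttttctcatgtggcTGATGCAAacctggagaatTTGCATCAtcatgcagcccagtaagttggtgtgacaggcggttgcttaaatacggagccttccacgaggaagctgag
The Slc30a1 start region lies at chr1:191906531-191906810 on the plus strand. Capitals mark the match to TGCNCNC, a loose form of the metal response element core TGCRCNC, where R is A or G.
Slc30a1: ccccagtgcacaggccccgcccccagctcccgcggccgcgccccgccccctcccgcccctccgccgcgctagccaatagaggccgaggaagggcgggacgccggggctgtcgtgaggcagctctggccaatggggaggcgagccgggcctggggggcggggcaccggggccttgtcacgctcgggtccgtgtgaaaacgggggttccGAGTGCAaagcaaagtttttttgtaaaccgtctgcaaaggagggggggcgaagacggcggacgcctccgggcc
The Slc44a2 start regions lie at chr9:21320469-21320748 and chr9:21337578-21337857 on the plus strand, and capitals mark matches to the antioxidant response element TGACNNNGC.
Slc44a2, upstream start: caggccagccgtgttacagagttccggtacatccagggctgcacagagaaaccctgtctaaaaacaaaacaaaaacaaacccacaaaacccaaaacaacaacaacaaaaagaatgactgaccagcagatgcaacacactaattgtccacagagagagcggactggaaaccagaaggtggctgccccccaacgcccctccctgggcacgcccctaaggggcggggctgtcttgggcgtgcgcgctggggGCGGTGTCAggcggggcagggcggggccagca
Slc44a2, downstream start: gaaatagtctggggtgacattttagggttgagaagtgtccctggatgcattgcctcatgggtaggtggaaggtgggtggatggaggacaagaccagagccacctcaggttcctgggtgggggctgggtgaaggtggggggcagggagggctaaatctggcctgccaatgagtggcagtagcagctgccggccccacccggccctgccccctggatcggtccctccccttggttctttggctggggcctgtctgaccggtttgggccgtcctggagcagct

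The Slc7a11 region held 2 matches, at positions -66 and -47 from the start site. The Slc30a1 region held 1 match at position -43, and another lay at position 31, just past the printed bases. The upstream Slc44a2 region held 1 match, at position -2, and the downstream region held 0. The last bases of the downstream region were found in a transcript, and those of the upstream region were not. None of these matches overlapped another of the 5 motifs searched. RefSeq start regions of 300 bases were at hand for 125 of the 165 members (169 regions). The amino acid response element was in 2.96% of the members' regions, against 3.97% of all 32851 regions. The loose form of the metal response element core was in 58.6% of the members' regions, against 51% of all regions. The antioxidant response element was in 21.3% of the members' regions, against 12.4% of all regions. TATAAA, the TATA box, was in 5.33% of the members' regions and 13.6% of all, and TCACGTGA, the core of the lysosomal CLEAR box, was in 2.37% of the members' regions and 0.974% of all. The CLEAR box share of the members rests on 4 regions. A gene with several starts gave several regions. The members were chosen by level and all 32851 regions were not, and the differences between these shares were not tested. All motifs were searched on both strands. A match is a run of letters and does not show that a factor binds there.

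Expression was concentrated in a few members. The median member had a mean of 1184 normalized counts and 72 members lay between 200 and 1000, while the 8 highest had means of 10511 or more. Slc25a5, which exchanges ADP for ATP across the inner mitochondrial membrane, had a mean of 84295, and Slc39a1, a zinc importer of the plasma membrane, had a mean of 50564. Together they made up 27.3% of the summed counts of all members, and the 20 highest members made up 59.1%. The sum over all members was 489100 ± 8984 in KO and 498995 ± 14360 in WT (n = 5 and 4, SD), and these ranges overlapped. As a share of all counts of a library it was 0.74% ± 0.009 in KO and 0.716% ± 0.013 in WT. This share ran from 0.7271% to 0.7521% in KO and from 0.6972% to 0.7277% in WT, so these ranges also overlapped. All normalized counts of a library summed to 65109000 to 67031400 in KO and to 68500100 to 70902600 in WT. The share thus has a lower denominator in every KO library.

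**Figure D1:**
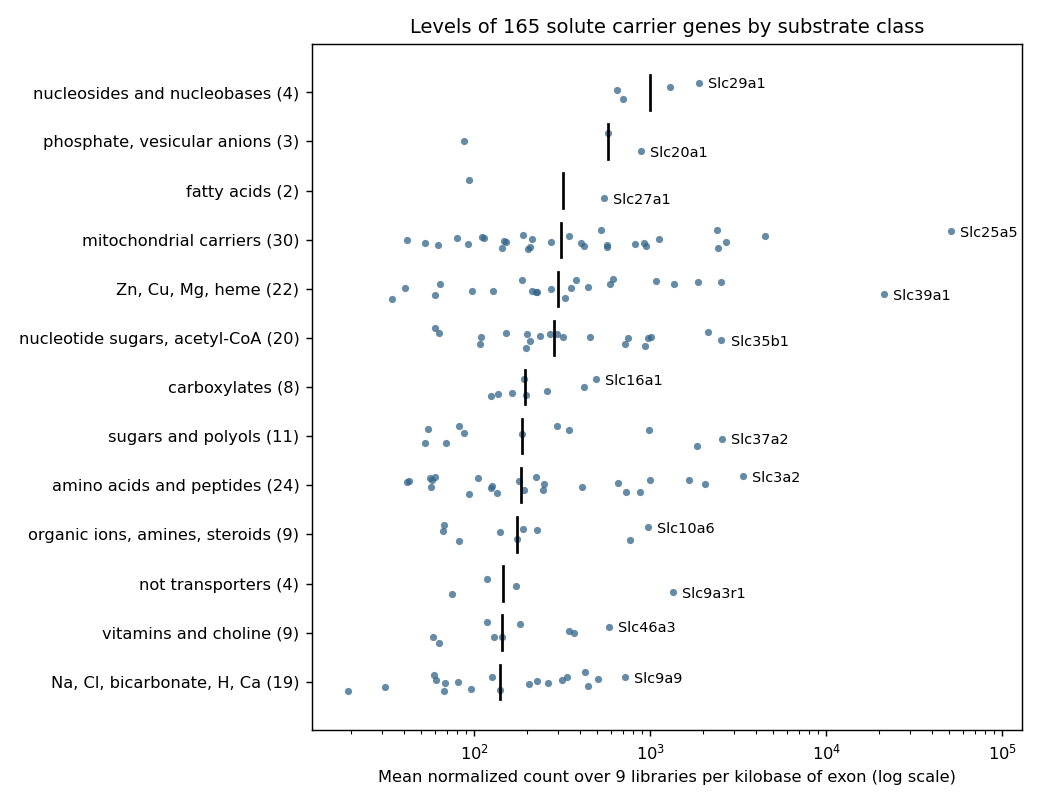
Mean normalized count over 9 libraries per kilobase of exon (log scale) for the 165 members, with 1 point per gene, grouped by substrate class with the number of genes in brackets. Bars mark class medians, and the gene with the highest level of each class is named. Slc25a5 at 51212 and Slc39a1 at 21389 stand far above every other member.

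Levels between genes were compared per kilobase of exon, from the exons of GENCODE release M21. On that scale the median class level ran from 998 for the 4 nucleoside and nucleobase carriers down to 139.5 for the 19 carriers of sodium, chloride, bicarbonate, protons and calcium. The 30 mitochondrial carriers had a median of 311 and the 22 carriers of zinc, copper, magnesium and heme a median of 301. The 24 amino acid and peptide carriers had a median of 185 per kilobase, with Slc3a2, Slc6a6 and Slc38a2 far above it. The highest members after Slc25a5 and Slc39a1 were Slc25a4, the second ADP/ATP carrier gene, with 4467 per kilobase, and Slc3a2, the shared heavy chain of several amino acid exchangers, with 3352. Among 38 members that share at least 200 bases at 95% identity with another gene's transcript were both leaders, Slc25a5 with 2 other genes and Slc39a1 with 1. How reads shared between genes were counted is not given in the sources used here, so their levels are uncertain to that degree.

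The comparison of KO with WT asks which of these transcripts differ when Nucb2 is lost. No member passed an adjusted p of 0.05 in limma over all genes (0 of 165, where 0.309% of all 14905 genes passed, and 0 of 165 with limma-voom, where 0.215% of all genes passed). At an unadjusted p under 0.05 there were 10 members in limma, which is 6.06%, against 9.14% of all genes and 10.3% of the genes with a mean of at least 200. Of these members 5 were higher and 5 lower in KO, where 5.37% of all genes were higher and 3.78% lower by the same rule. With limma-voom there were 13 members, 7.88%, against 8.26% of all genes. The ranges of the KO and WT libraries did not overlap in 2 members, or 1.21%, against 3.15% of all genes. These were Slc43a3 and Slc44a2, both higher in every KO library than in any WT library, as 1.55% of all genes were.

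The log2 difference was above 0 for 94 members and below 0 for 71; 57% were above 0, against 52.4% of all genes and 48.6% of the genes with a mean of at least 200. The median difference was 0.04 over the members and 0.02 over all genes, and the middle of the members ran from -0.12 to 0.22 between quartiles. The most negative value was -1.07 for Slc12a9 and the most positive was 1.62 for Slc2a3. A log2 difference of at least 0.5 in size was found for 20 members, or 12.1%. This held for 32.1% of all genes and 14.2% of the genes with a mean of at least 200. By 1 or more, 4 members differed, 3 higher and 1 lower in KO, and the share of all genes at that size was not worked out. The 95% confidence interval of the difference lay within -1 and 1 for 121 members and within -0.5 and 0.5 for 39. For the other members these libraries leave room for a change of 2-fold or more, so a p above the threshold does not show that they were alike.

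**Figure D2:**
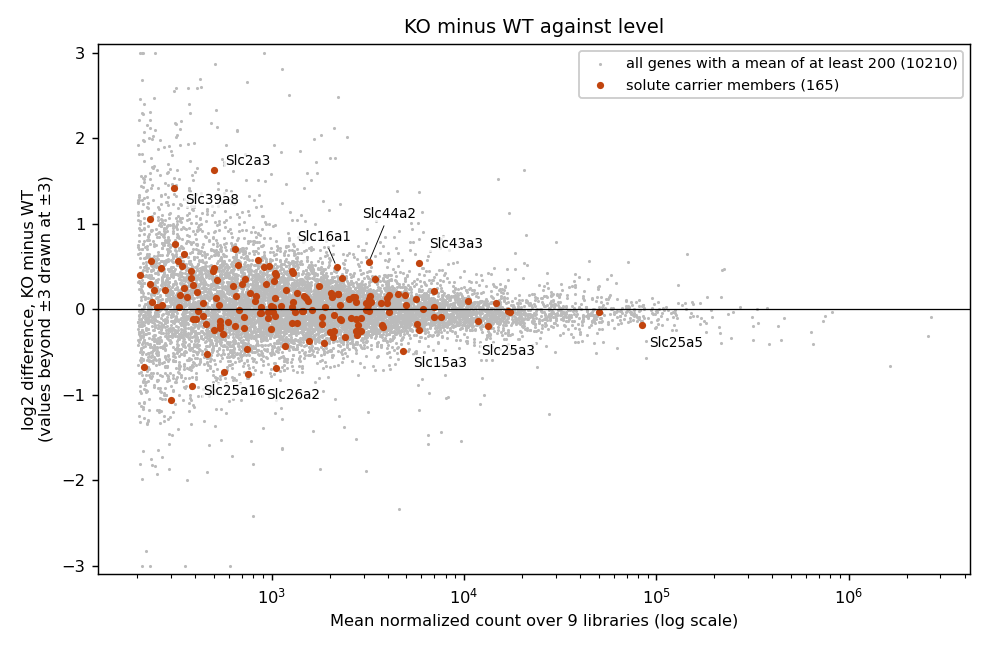
Log2 difference (KO minus WT) against the mean normalized count over 9 libraries (log scale), for the 165 members over the 10210 genes with a mean of at least 200. The 10 members with an unadjusted p under 0.05 are named. The members lie inside the cloud of all genes at every level, and Slc2a3 at 1.62 and Slc39a8 at 1.42 stand out among the low ones.

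**Figure D3:**
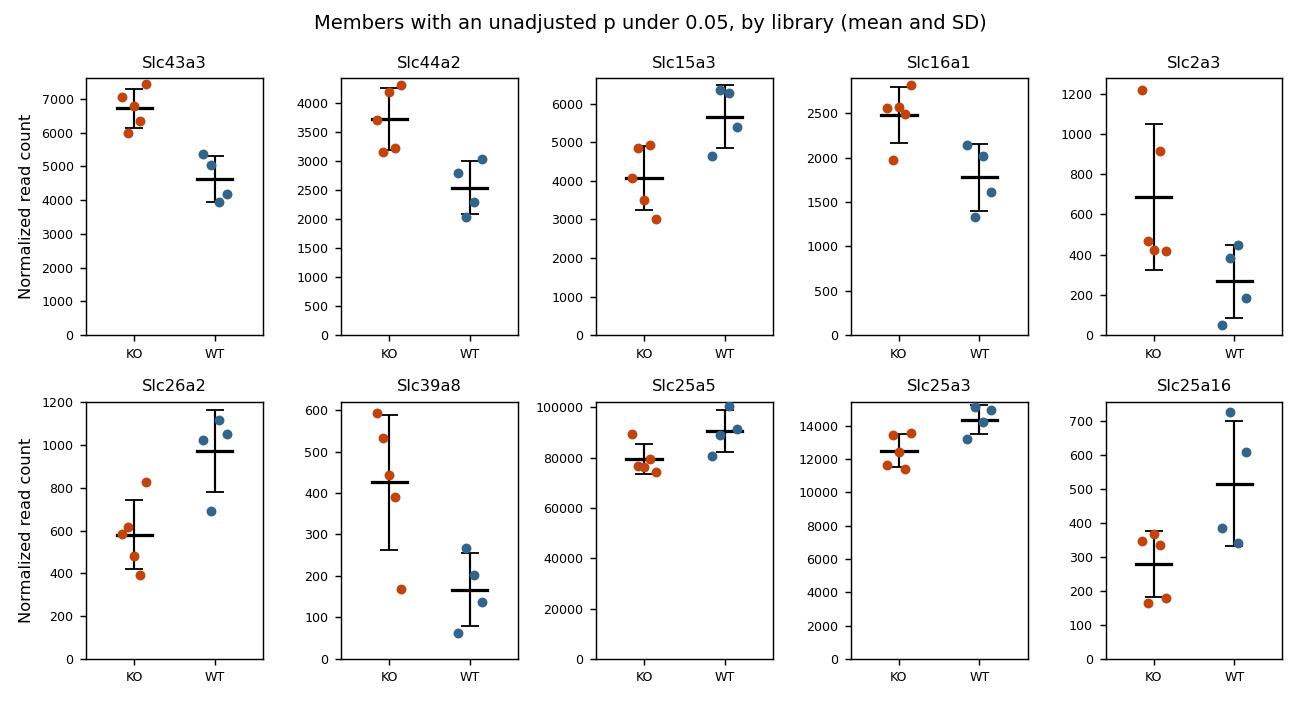
Normalized read count of the 10 members with an unadjusted p under 0.05, each point 1 library, with mean and SD (5 KO and 4 WT libraries), each panel starting at 0. The points of KO and WT are separate for Slc43a3 and Slc44a2 and interleave for the other 8.

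Nucleoside and nucleobase carriers had the highest median level and the member with the smallest p. Slc43a3 encodes a nucleobase transporter, shown for the human protein to carry purine bases. Its normalized count was 7050, 5987, 6778, 6346 and 7430 in the KO libraries, against 5376, 5037, 3943 and 4189 in the WT libraries. All 5 KO libraries stood above all 4 WT libraries. The mean was 6718 ± 569 in KO and 4636 ± 680 in WT (n = 5 and 4, SD), a log2 difference of 0.54 (SE 0.12; limma, adjusted p = 0.0748), so it missed the threshold over all genes. Within the 6 deeper libraries alone, KO replicates 1 to 4 and WT replicates 1 and 2, the difference was 0.33 (adjusted p = 0.528 in limma). Depth was thus not balanced between the genotypes. The shallower WT replicates 3 and 4 had the lowest counts of Slc43a3. The endothelial, dendritic cell, and T and NK cell marker sums above were also higher in every KO library than in any WT library. The fibroblast sum, the largest of these, was higher at the median in KO and overlapped. The part of these sums in this difference was not tested. On GRCm38 the gene occupies chr2:84936579-84958509, plus strand.

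The other members of that class showed no such separation. Slc29a1, the equilibrative nucleoside transporter of the plasma membrane, averaged 7329 ± 833 in KO and 7807 ± 536 in WT. Slc29a3, its lysosomal relative, averaged 4289 ± 1058 in KO and 3800 ± 655 in WT. Slc28a2, the concentrative carrier of purine nucleosides, averaged 2624 ± 352 in KO and 2878 ± 641 in WT (n = 5 and 4, SD for each), and it shares 3749 bases with the predicted gene Gm14085. All their differences lay between -0.12 and 0.16 on the log2 scale.

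Vitamin and choline carriers included the second member with separate ranges. Slc44a2 had 3718, 3160, 4193, 3221 and 4315 normalized counts in KO, against 2803, 2044, 2305 and 3034 in WT. The lowest KO library stood just above the highest WT library. This is a log2 difference of 0.55 (SE 0.15; adjusted p = 0.179 in limma), which lay between 0.45 and 0.64 with each library left out in turn. The table gives 1 value per gene, so the upstream and downstream starts printed above are not separated. As for Slc43a3, the endothelial, dendritic cell, and T and NK cell marker sums moved the same way, as did the fibroblast sum at the median. Their part was not tested.

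Of the 9 members of the vitamin class, 5 differences were above 0 and 4 below, and the class median was 0.15. Slc46a1, the proton-coupled folate transporter, had 547, 616, 279, 458 and 267 normalized counts in KO, against 1074, 811, 535 and 465 in WT, with overlapping ranges (log2 difference -0.74; limma, adjusted p = 0.579). Slc5a6, which takes up biotin and pantothenate, ran from 205 to 331 in KO and from 51.7 to 304 in WT, a log2 difference of 1.05 with a 95% confidence interval from -0.17 to 2.28. The wide interval goes with the spread of the WT libraries. Slc23a2, the ascorbate transporter, averaged 2500 ± 291 in KO and 3074 ± 963 in WT (n = 5 and 4, SD). Slc46a3, a lysosomal carrier with the highest level of the class per kilobase, averaged 1437 ± 375 in KO and 1444 ± 261 in WT.

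Sugar and polyol carriers were led by Slc37a2, which exchanges glucose 6-phosphate for phosphate at the endoplasmic reticulum, with 2557 normalized counts per kilobase. It averaged 16900 ± 2666 in KO and 17092 ± 2648 in WT (n = 5 and 4, SD), a log2 difference of -0.02 with a 95% confidence interval from -0.28 to 0.25. Slc50a1, a sugar efflux carrier, and Slc2a6, a lysosomal hexose carrier, followed in level, with differences of 0.14 and 0.05. Slc2a3, the high-affinity glucose transporter GLUT3, was a low member. Its normalized count was 1217, 466, 423, 915 and 418 in KO, against 50.3, 383, 448 and 186 in WT. The ranges overlapped because WT replicate 3 stood above 2 of the KO libraries.

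The Slc2a3 log2 difference was 1.62, the most positive of all members (95% confidence interval 0.38 to 2.87; limma, adjusted p = 0.354). WT replicate 1 was the lowest of all libraries, and without it the difference was 0.97. Of the 11 sugar carriers 9 differences were above 0, with a class median of 0.05. Slc45a3 ran from 236 to 503 in KO and from 137 to 308 in WT, and Slc45a4 from 173 to 709 in KO and from 388 to 683 in WT. Slc5a3, which takes up inositol with sodium, averaged 3327 ± 880 in KO and 3064 ± 897 in WT.

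The carboxylate carriers had the highest class median of the differences, 0.23, with 6 of 8 above 0. Slc16a1, the lactate and pyruvate transporter MCT1, had 2561, 1969, 2574, 2487 and 2818 normalized counts in KO, against 2148, 1327, 2020 and 1615 in WT. KO replicate 2 was the only KO library below a WT library. This gave a log2 difference of 0.50 (SE 0.17; limma, adjusted p = 0.328). Slc16a3, the lactate exporter MCT4, averaged 1172 ± 344 in KO and 895 ± 311 in WT, a log2 difference of 0.40 (95% confidence interval -0.20 to 1.01). Slc13a3, which carries dicarboxylates such as succinate, averaged 995 ± 243 in KO and 671 ± 179 in WT (log2 difference 0.57; limma, adjusted p = 0.549).

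The partner proteins of these carriers were close to even between the genotypes. Bsg, the chaperone of Slc16a1 and Slc16a3, differed by 0.08 on the log2 scale and Emb, a related chaperone, by 0.06. Ldhb, a lactate dehydrogenase subunit, averaged 2329 ± 718 in KO and 1465 ± 356 in WT (log2 difference 0.64; limma, adjusted p = 0.391). Slc16a10, an aromatic amino acid carrier of the same family, had the second highest level of the class and a log2 difference of -0.01. Slc16a6, with 21.5% of its exon bases overlapping Amz2 on the opposite strand, differed by 0.02. Whether strand was used in counting is not given in the sources used here.

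**Figure D4:**
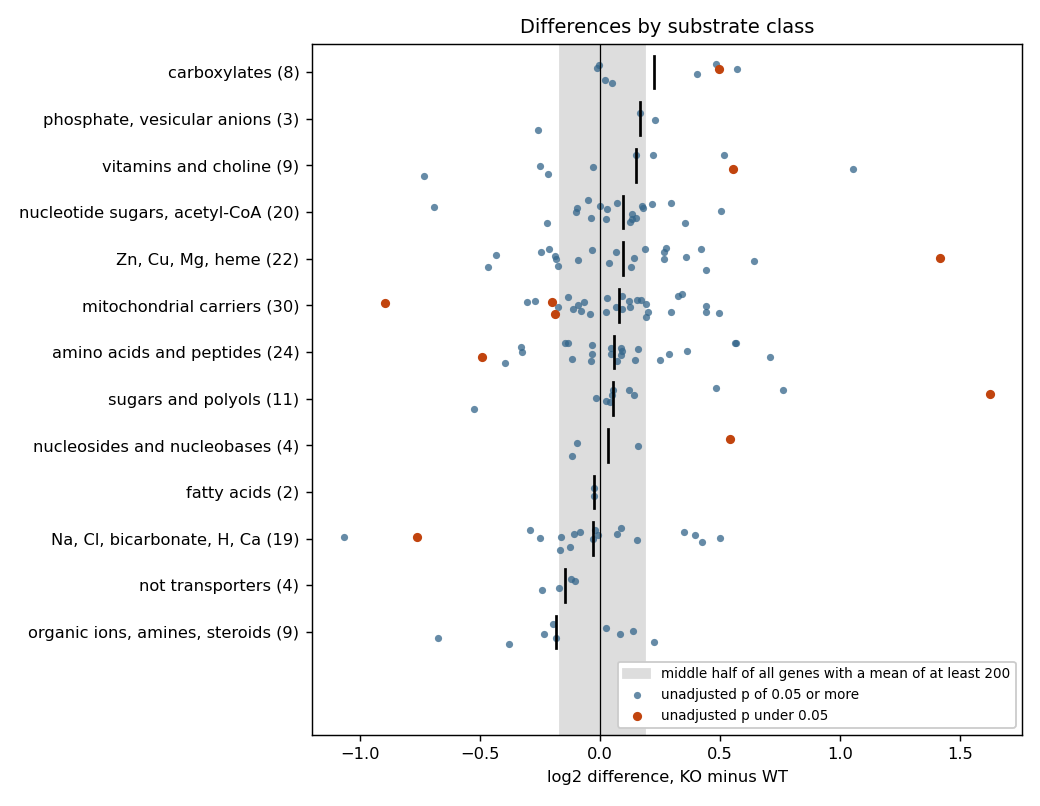
Log2 difference (KO minus WT) of the 165 members by substrate class, ordered by class median (black bars), with members of unadjusted p under 0.05 in red. The grey band holds the middle of all genes with a mean of at least 200, from -0.17 to 0.19 between quartiles. Class medians ran from 0.23 for carboxylates to -0.19 for organic ions, amines and steroids, and only these and no other class medians lay outside the band.

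Amino acid and peptide carriers numbered 24, of which 14 differences were above 0 and 10 below, with a median of 0.06. The highest per kilobase were Slc3a2, the taurine transporter Slc6a6 and the glutamine transporter Slc38a2. Slc3a2 averaged 11341 ± 777 in KO and 12442 ± 637 in WT, Slc6a6 17219 ± 1997 in KO and 17639 ± 1327 in WT, and Slc38a2 15026 ± 1808 in KO and 14239 ± 985 in WT (n = 5 and 4, SD). Their 95% confidence intervals all lay within -0.32 and 0.29 on the log2 scale. The ranges of KO and WT overlapped for all 3.

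Slc15a3, an endolysosomal carrier of histidine and small peptides, had the smallest p of the class. Its normalized count was 4078, 4845, 3499, 4928 and 3002 in KO, against 4632, 6346, 6288 and 5409 in WT. KO replicates 2 and 4 stood above WT replicate 1, and each other KO library stood below all WT libraries. Its log2 difference was -0.49 (SE 0.16; limma, adjusted p = 0.264). Its exons overlap Tmem132a on the opposite strand over 28.1% of their length.

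The light chains that pair with Slc3a2 did not share a direction. Slc7a11, the cystine and glutamate exchanger whose start region is printed above, averaged 1650 ± 417 in KO and 2135 ± 268 in WT (log2 difference -0.40; limma, adjusted p = 0.55). Slc7a7, which exchanges cationic for neutral amino acids, averaged 2174 ± 533 in KO and 2692 ± 472 in WT, and Slc7a8, a carrier of neutral amino acids, 5089 ± 743 in KO and 4899 ± 334 in WT. Slc7a5, the leucine transporter LAT1, ran from 188 to 518 in KO and from 161 to 650 in WT. All of these ranges overlapped.

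Slc7a1, the cationic amino acid transporter that supplies arginine, had 1090, 953, 783, 694 and 396 normalized counts in KO, against 671, 488, 448 and 289 in WT. Its log2 difference of 0.71 was the most positive of the class (adjusted p = 0.567 in limma). Slc7a2, an arginine transporter induced in activated macrophages, ran from 235 to 810 in KO and from 113 to 458 in WT. Slc38a9, the lysosomal arginine sensor, averaged 1890 ± 509 in KO and 2320 ± 261 in WT, a log2 difference of -0.33.

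ATF4, a factor induced by amino acid shortage, has several of these carriers among its targets. Of 28 measured genes on a list of ATF4 targets and members outside the solute carriers, 0 passed an adjusted p of 0.05 in limma. Of these, 7 had an unadjusted p under 0.05 (background 9.14%), all 7 higher in KO, where 5.37% of all genes were higher by the same rule, and the list's median was 0.23, against 0.02 over all genes. Nupr1, a stress-induced chromatin protein, averaged 13732 ± 1687 in KO and 10348 ± 948 in WT (adjusted p = 0.134 in limma). Ppp1r15a, a phosphatase subunit of the stress response, averaged 22557 ± 3481 in KO and 17413 ± 1359 in WT (adjusted p = 0.196). The other 5, named after their values were seen, were Asns, Cars, Phgdh, Atf3 and Atf4 itself, with log2 differences from 0.25 to 2.46. Among the carriers known as targets of ATF4, the log2 difference was 0.71 for Slc7a1, 0.25 for Slc7a5, 0.09 for Slc1a5 and 0.07 for Slc38a2, and it was -0.40 for Slc7a11 and -0.13 for Slc3a2. None of these 6 passed an adjusted p of 0.05 in limma.

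Of 24 measured enzymes that use carried amino acids and lactate, 2 had an unadjusted p under 0.05, or 8.33%, near the 9.14% of all genes. Got1, the cytosolic aspartate aminotransferase, averaged 11499 ± 823 in KO and 14759 ± 1836 in WT (adjusted p = 0.172 in limma), and Ldhb is given above. Among 17 measured genes of lysosomal amino acid sensing, 13 differences were below 0 and 4 above, or 23.5% above 0 against 52.4% of all genes. An unadjusted p under 0.05 was found for 2 of them, or 11.8%, against 9.14% of all genes. These were Fnip1 and Fnip2, partners of folliculin, with log2 differences of -0.31 and -0.42 (limma, adjusted p = 0.497 and 0.433).

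The metal carriers numbered 22, with 13 differences above 0 and a median of 0.10. Slc39a1, the second highest member, had 51621, 53643, 48422, 44105 and 51978 normalized counts in KO, against 43580, 58626, 52166 and 50938 in WT. The KO libraries lay inside the WT range, and the 95% confidence interval of its difference ran from -0.22 to 0.15. Slc48a1, which moves heme out of the lysosome, averaged 6759 ± 1056 in KO and 7152 ± 563 in WT. Slc31a1, the copper importer, averaged 5298 ± 626 in KO and 6457 ± 1990 in WT, and Slc31a2, its endolysosomal relative, 3535 ± 195 in KO and 4108 ± 402 in WT.

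Slc39a8, an importer of zinc and manganese, was the metal carrier with the smallest p. It had 593, 532, 444, 390 and 169 normalized counts in KO, against 61.2, 268, 201 and 138 in WT. KO replicate 5 was the only KO library inside the WT range. Its log2 difference was 1.42 (95% confidence interval 0.28 to 2.56; limma, adjusted p = 0.391), and it was 1.003 without WT replicate 1, the lowest library. Slc39a14, which carries the same metals, ran from 140 to 464 in KO and from 245 to 448 in WT.

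Slc30a1, the zinc exporter whose start region is printed above, had 961, 1121, 1101, 1085 and 782 normalized counts in KO, against 1456, 1063, 1847 and 1177 in WT. The log2 difference was -0.44 (adjusted p = 0.574 in limma), and WT replicate 2 lay inside the KO range. Mt2, a metallothionein that zinc induces through MTF1, averaged 9603 ± 906 in KO and 8102 ± 794 in WT (log2 difference 0.25; limma, adjusted p = 0.466), and Mt1 differed by 0.09. Mtf1 averaged 656 ± 176 in KO and 909 ± 208 in WT. The known MTF1 targets among these genes had values on both sides of 0, and of the 10 measured zinc and copper proteins 5 differences were above 0 and 5 below.

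Mitochondrial carriers made up 31.9% of the summed member counts, and 18 of the 30 differences were above 0. An unadjusted p under 0.05 was found for 3 of the 30, or 10%, near the 9.14% of all genes, and these 3 were lower in KO, as 3.78% of all genes were. Slc25a5 had 89508, 76840, 76353, 79637 and 74409 normalized counts in KO, against 80523, 89194, 100716 and 91473 in WT. KO replicate 1 stood above WT replicates 1 and 2, and the other KO libraries stood below all WT libraries. The log2 difference was -0.19 (SE 0.08; limma, adjusted p = 0.461), and within the 6 deeper libraries alone it was -0.08. Slc25a4, the other ADP/ATP carrier gene, averaged 10791 ± 469 in KO and 10161 ± 860 in WT, a difference of 0.09.

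Slc25a3, the phosphate carrier that supplies ATP synthase, had 11656, 13463, 12432, 11413 and 13551 normalized counts in KO, against 13210, 15090, 14245 and 14924 in WT. Its difference of -0.20 was close to that of Slc25a5 (SE 0.09; limma, adjusted p = 0.482). Slc25a16, a low member, had 346, 166, 368, 335 and 179 in KO, against 385, 729, 340 and 610 in WT (log2 difference -0.90; limma, adjusted p = 0.539). Only WT replicate 3 lay inside its KO range.

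Carriers of fuel molecules into the mitochondrion had overlapping ranges. Slc25a20, the acylcarnitine carrier, averaged 2513 ± 559 in KO and 3078 ± 469 in WT (log2 difference -0.31). Slc25a12 and Slc25a13, the aspartate and glutamate carriers, differed by -0.27 and 0.09, and Slc25a22, a glutamate carrier, by 0.49 with a 95% confidence interval from -0.07 to 1.06. Slc25a11, the oxoglutarate carrier, averaged 5380 ± 425 in KO and 6145 ± 1073 in WT. The fatty acid carriers of the plasma membrane, Slc27a1 and Slc27a4, both differed by -0.03.

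Carriers of sodium, chloride, bicarbonate, protons and calcium had 12 of 19 differences below 0 and a median of -0.03. Slc26a2 is a sulfate transporter, classed here with the rest of its family. It had 585, 616, 483, 393 and 825 normalized counts in KO, against 1026, 691, 1117 and 1052 in WT. KO replicate 5 was the only KO library above a WT library. Its log2 difference was -0.76 (SE 0.28; limma, adjusted p = 0.364). Slc12a9 had 106, 237, 118, 219 and 320 in KO, against 471, 189, 614 and 402 in WT, and its difference of -1.07 was the most negative of all members (95% confidence interval -2.14 to 0.005; limma, adjusted p = 0.549).

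Slc12a7, the potassium and chloride cotransporter KCC4, averaged 2672 ± 214 in KO and 3177 ± 187 in WT (n = 5 and 4, SD; adjusted p = 0.562 in limma). The class was led in level by the endosomal sodium and proton exchanger Slc9a9, which averaged 4019 ± 749 in KO and 4120 ± 880 in WT.

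The 20 carriers of nucleotide sugars and acetyl-CoA feed glycosylation in the endoplasmic reticulum and Golgi apparatus, and 14 of their differences were above 0 with a median of 0.10. None had an unadjusted p under 0.05 in limma. Slc35b1, which exchanges ATP for ADP at the endoplasmic reticulum, averaged 5873 ± 845 in KO and 5352 ± 165 in WT. Slc35c1, the GDP-fucose carrier, ran from 843 to 1451 in KO and from 434 to 1007 in WT, and Slc35d2, which carries UDP-N-acetylglucosamine, from 244 to 1138 in KO and from 759 to 1790 in WT. Slc35a4 averaged 7386 ± 557 in KO and 6385 ± 819 in WT, a log2 difference of 0.22 (adjusted p = 0.578 in limma).

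The phosphate importer Slc20a1 averaged 5208 ± 1020 in KO and 4578 ± 157 in WT, and the lysosomal sialic acid exporter Slc17a5 averaged 1921 ± 182 in KO and 2316 ± 377 in WT (n = 5 and 4, SD). Slc17a9, which loads nucleotides into vesicles, ran from 149 to 477 in KO and from 210 to 264 in WT. The 3 differences of this class were 0.17, -0.26 and 0.23 on the log2 scale. The smallest adjusted p among them in limma was 0.65.

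Carriers of organic ions, amines and steroids had the lowest class median, -0.19, with 5 of 9 differences below 0. Slc10a6, a steroid sulfate carrier, ran from 930 to 3417 in KO and from 1788 to 1967 in WT, so the KO libraries enclosed the WT range. Slc10a3 averaged 1385 ± 372 in KO and 1782 ± 381 in WT, and Slc6a8, the creatine transporter, 1257 ± 141 in KO and 1092 ± 241 in WT. Slc18a2, the vesicular carrier that loads histamine in mast cells, had 1294, 435, 957, 700 and 1353 normalized counts in KO, against 906, 1123, 956 and 1153 in WT. These ranges overlapped, whereas the mast cell, basophil and eosinophil marker sums given above did not overlap and were lower in KO.

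The 4 members that are not transporters all had differences below 0, from -0.24 to -0.11, with the smallest adjusted p 0.845 in limma. They are Slc9a3r1 and Slc9a3r2, scaffold proteins that bind a sodium and proton exchanger, and Slc7a6os and Slc4a1ap, named for their neighbourhood or binding partner. Slc9a3r1 averaged 2517 ± 453 in KO and 2691 ± 362 in WT. Each of these 4 ranges overlapped between the genotypes.

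Members varied among libraries of 1 genotype about as much as other genes of like level, and somewhat more in KO at means of 1000 or more. The median coefficient of variation was 24.03% in KO and 24.39% in WT over the members, against 20.48% in KO and 21.02% in WT over genes with a mean of at least 200. Among members with a mean of 200 to 1000 it was 33.2% in KO and 35.9% in WT, close to the 33.6% and 35.2% of all genes in that range. Among the 75 members between 1000 and 5000 it was 20.6% in KO and 18.7% in WT, against 18.1% and 18.3% for all genes of that range. For the 18 members from 5000 to 100000 it was 11.5% in KO and 8.8% in WT, against 9.5% and 9.6%. Members close to the limit of the rule varied more. Just inside it were Slc4a4, a sodium bicarbonate cotransporter, with a mean of 207, and Slc18b1, a polyamine carrier, with 215. Just outside were Slc2a4rg-ps with 190 and Slc1a3, a glutamate transporter, with 183. Of the 85 Slc-named genes with a mean under 200, 0 passed an adjusted p of 0.05 in limma and 6 had an unadjusted p under 0.05, or 7.06%, against 9.14% of all genes. These 6 were higher in KO, where 5.37% of all genes were higher by the same rule.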

How the data were processed

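The values that the authors deposited, 1 per gene and library, are a normalized signal: as their spacing shows, they are read counts scaled by a factor for each library, linear, and never under 1. Tools named in the submitters' processing notes are CASAVA 1.8.2, HISAT, Partek and DESeq2, with the build mm10. The sources used here do not give the gene filter, the annotation or the treatment of shared reads. Per the labels' protocols, mRNA was taken with oligo-dT beads and libraries kept strand by dUTP.

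KO and WT were compared by limma 3.58.1 (R 4.3.3) on log2(normalized count + 1) with a mean-variance trend and genotype as the only term over 9 libraries, with Benjamini-Hochberg adjustment over 14905 unfiltered genes. This scale understates changes of low genes. Members and lists were chosen with earlier results of these data known. Named were, per substrate class, up to 4 members with the smallest p and 3 with the highest mean per kilobase, 2 genes on each side of the mean of 200, and up to 2 genes per list with the smallest p. Slc1a5, Slc7a2, Slc7a5, Slc7a7, Slc7a8, Slc5a3, Slc25a12, Slc25a13, Slc25a20, Slc31a1, Slc39a14, Bsg, Emb and Mt1 were named for their role, after their values were seen. Some members are counted but not reported singly here. Shared sequence was found with BLAST 2.17.0 on GENCODE M21 transcripts, and figures were drawn with matplotlib 3.10.9 (Python 3.11.15). The code was tested on simulated data. Alternatives were other pseudocounts (0.1 and 10), filters, scalings, array weights, cut-offs of the mean, a term for depth class, the deeper libraries, a block for replicate number, and leaving out each library; limma-voom on reads inferred from the values was added after seeing the data.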

Additional observations from a re-analysis of the deposited data

Results flagged for a closer look

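Among the members reported and the other genes named in the text, 174 genes in 348 groups of libraries were looked at for 1 library that stood far from the others of its genotype. This was so in 9 groups, where chance alone flags about 1 in 20 groups. In KO, Slc12a2, the sodium, potassium and chloride cotransporter NKCC1, had 985 normalized counts in replicate 5, against 197 to 329 in the other KO libraries. The mitochondrial carrier of S-adenosylmethionine, Slc25a26, had 582 in KO replicate 3, against 112 to 213 in the others. The urate carrier Slc2a9 had 40.6 in KO replicate 2, against 265 to 333. The nucleotide sugar carrier Slc35d1 had 72.1 in KO replicate 4, against 573 to 714. The zinc and manganese importer Slc39a14 had 140 in KO replicate 3, against 407 to 464.

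In WT, Slc25a13 had 958 in replicate 2, against 1590 to 1712 in the other WT libraries, and Slc25a17, a carrier of the peroxisome, had 7957 in the same library, against 6421 to 6628. Slc25a36, a pyrimidine nucleotide carrier, had 1417 in WT replicate 4, against 2022 to 2100. Slc25a46, a protein of the outer mitochondrial membrane, had 1202 in that library, against 778 to 835. No cause of these values was tested.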

How the results depend on the processing

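No member passed an adjusted p of 0.05 under any of the 19 alternative fits, or among members with a mean of at least 100 or 1000. The number of members with an unadjusted p under 0.05 was 9 to 14 over the fits, against 10 as reported, and 6 of the 93 members with a mean of at least 1000. The median difference stayed between 0.02 and 0.07. All genes past an adjusted p of 0.05 numbered 46 as reported, 0 for the 6 deeper libraries (limma, with 1039 at p under 0.05 unadjusted), and 5 to 38 with each library left out in turn: 8, 14, 5, 8 and 9 without KO replicates 1 to 5, and 38, 10, 18 and 19 without WT replicates 1 to 4. A replicate block, in which KO replicate 5 has no partner, left 0 (1104 unadjusted, limma); 13 members had an unadjusted p under 0.05 and the members' median was 0.06. Libraries of the same number showed little shared deviation (correlations -0.01 to 0.07 over 4 pairs, 2 of 4 libraries closest to their own number). The labels do not say what the number marks. With 4 pairs, whether such libraries share a litter or day stays unknown.

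Of 1140 values of 60 of the genes named, 1121 kept direction and side of the threshold, 17 changed sign and 2 lost the call. The 2 were Nucb2 in the deeper libraries (-1.61; adjusted p = 0.116 in limma) and under the block (-1.58; adjusted p = 0.0515 in limma). Signs changed in the deeper libraries for Slc29a1 (0.028), Slc28a2 (0.084), Slc45a4 (0.047, against -0.53 as reported) and Slc23a2 (0.18, against -0.25), with a term for depth class Slc28a2 (0.028), with array weights Slc27a4 (0.032), and under the block Slc27a4 (0.16). With each library left out in turn, values ran from -0.21 to 0.22 for Slc27a4, -0.13 to 0.086 for Slc27a1, -0.20 to 0.0059 for Slc9a3r1, -0.39 to 0.016 for Slc18a2 and -0.37 to 0.11 for Slc4a1ap. Genes named above that are not among these 60 also changed sign in some of the 19 fits. Slc37a2 and Slc16a10 kept their sign in 10 of the fits, Slc9a9 in 13 and Slc46a3 in 14. Slc7a2 ran from -0.31 to 0.58 over the fits. The cause was not tested. The planned edgeR and DESeq2 tests were not run because the floor at 1 hides reads. Depth limits the low members: the lowest reached 25 reads in 1 library.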

Other observations

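Transporters of the same superfamilies with other names, and proteins that accompany solute carriers, gave 31 measured genes, of which 0 passed an adjusted p of 0.05 in limma, 15 had differences above 0 and 16 below. Mfsd6, a member of the major facilitator superfamily, was the 1 gene with an unadjusted p under 0.05 (background 9.14%). It had 1064, 467, 619, 948 and 841 normalized counts in KO, against 154, 230, 469 and 146 in WT. KO replicate 2 and WT replicate 3 all but coincided, and the other KO libraries stood above all WT libraries. The log2 difference was 1.76 (SE 0.41; limma, adjusted p = 0.0945). Unc93b1, which escorts nucleic acid-sensing Toll-like receptors to endosomes, averaged 31179 ± 3854 in KO and 35489 ± 2844 in WT (n = 5 and 4, SD; adjusted p = 0.555 in limma).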
